A study of Mus musculus with 12 samples.

Results

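The 9 genes described here carry the insulin signal in liver cells, running from the insulin receptor at the cell surface to the FOXO transcription factors in the nucleus. They are Insr, Irs1, Irs2, Pik3r1, Akt1, Akt2, Grb14, Foxo1 and Foxo3, and every locus of the deposited tables that names one of them was taken, which gave 17 of 66468 loci. Total RNA of whole liver was sequenced from wild-type C57BL/6 mice of 17 weeks on control diet, which the methods of the study give as male C57BL/6N mice. RF mice went without food for 16 h and were then fed again for 6 h, FA mice went without food for 16 h, and AL mice fed ad libitum. Each of the 3 groups held 4 libraries, 12 in all. No source used here gives the time of day of collection, so food intake and time of day cannot be told apart.

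Insulin binds the insulin receptor, a tyrosine kinase, which phosphorylates the docking proteins IRS1 and IRS2. These recruit phosphoinositide 3-kinase, whose lipid product brings AKT kinases to the membrane, and AKT phosphorylates FOXO1 and FOXO3 so that they leave the nucleus. In fasted liver FOXO proteins stay nuclear and promote transcription of genes of glucose production, and Irs2 is itself known as a FOXO target in liver.

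Levels are given as FPKM, the number of fragments scaled to transcript length and to the mapped fragments of the library, and the authors pooled the libraries of a group into 1 value per group and locus. The spread between libraries is therefore not in the tables, depth is unknown, no SD or n can be attached to a value and no test was made here. A locus is said to be past the threshold when its FPKM was 1.5-fold or more higher or lower, at a mean FPKM of 1 or more over both groups. The table of FA and AL holds whole loci, whereas the table of RF and FA holds 1 assembled transcript for each locus, and by what rule that transcript was picked is not stated in the labels or the methods. RF values are set beside AL values only where the FA value agreed within 10% between the tables, which is called matched below, and this held for 10 of the 17 member loci. Of these 17 loci, 9 lay on the annotated strand of the gene they name and 8 on the opposite strand. Among all loci with a value above 0 and a known strand, 36.9% of 33354 lay on the opposite strand, and whether the strand of the libraries was set correctly in the assembly was not tested. Because the tissue was bulk liver, fewer cells of a type and less RNA per cell cannot be told apart. Of 9 hepatocyte markers 8 were above 0, with a summed FPKM of 8958 in FA and 10810 in AL, and albumin, a defining marker, was listed at 0. The lower sum in FA came from Ttr (1504 in FA, 2324 in AL) and Trf (2790 in FA, 4074 in AL, at a locus that also names Gm20425 and Srprb). The other hepatocyte markers above 0 were higher in FA, and the median log2 ratio of FA over AL was 0.07. The 8 Kupffer cell markers summed to 24.5 in FA and 29.3 in AL, the 7 endothelial markers to 38.6 in FA and 44.1 in AL, and the 8 stellate cell and fibroblast markers to 56.2 in FA and 63.6 in AL. The part of these marker differences in any member's ratio was not tested.

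The promoters of the receptor substrates are shown because Irs2 had the largest ratio among the members in FA against AL, at a low FPKM, and Irs1 encodes its closest relative among them. The promoter of Akt1 is shown as the only other one of a member with a motif. RefSeq promoters of build GRCm38.p6 were found for 8 of the 9 genes, 13 promoters in all, and Insr was not matched. The 250 bases before each start were searched on both strands for TGTTTAC (a FOXO consensus), TGTTTTG (the core of the insulin response element) and CACGTG (the E-box, read by factors such as SREBP and USF), and matches are in capitals. The Irs1 promoter is chr1:82291440-82291689, the Irs2 promoter chr8:11008930-11009179 and the Akt1 promoter chr12:112674885-112675134, and all of these are on the minus strand, printed 5′ to 3′.
Irs1: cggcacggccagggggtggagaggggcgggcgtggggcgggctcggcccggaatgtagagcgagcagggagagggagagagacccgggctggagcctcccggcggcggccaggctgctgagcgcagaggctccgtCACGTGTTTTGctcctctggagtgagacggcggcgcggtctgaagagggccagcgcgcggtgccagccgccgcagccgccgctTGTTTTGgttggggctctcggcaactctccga
Irs2: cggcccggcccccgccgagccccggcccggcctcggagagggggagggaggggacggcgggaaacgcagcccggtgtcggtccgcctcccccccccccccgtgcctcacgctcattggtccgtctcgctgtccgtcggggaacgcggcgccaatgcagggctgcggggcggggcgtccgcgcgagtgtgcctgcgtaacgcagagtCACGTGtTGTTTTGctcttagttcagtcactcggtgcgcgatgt
Akt1: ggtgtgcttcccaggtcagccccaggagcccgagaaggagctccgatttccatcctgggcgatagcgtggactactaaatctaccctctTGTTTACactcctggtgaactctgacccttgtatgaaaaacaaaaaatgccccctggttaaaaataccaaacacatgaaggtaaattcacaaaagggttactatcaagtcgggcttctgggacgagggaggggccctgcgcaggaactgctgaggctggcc
Counting back from the start, Irs2 held the E-box at -44 to -39, followed after a single base by the insulin response element core at -37 to -31. Irs1 held the E-box at -115 to -110, which shared its last bases with an insulin response element core at -111 to -105, and a further core at -32 to -26. Akt1 held the FOXO consensus at -161 to -155. The other 10 member promoters, those of Pik3r1, Akt2, Grb14, Foxo1 and Foxo3 and the second one of Akt1, held none of these letters. Of 32851 mouse promoters of this length, 3.17% held the FOXO consensus, 5.56% the insulin response element core and 6.02% the E-box. The E-box and the insulin response element core stood in the same promoter in 97 of them (0.295%), and their starts lay within 10 bases of each other in 7 (0.0213%), a count made after the pair had been seen. These matches describe letters, not binding.

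The comparison of FA with AL asks how the transcripts of this pathway stand in liver after a fast. Insr and Foxo3 were higher in FA by 1.34-fold to 1.36-fold, Pik3r1 and Akt1 were nearly level, Akt2 and Grb14 were slightly lower, and Irs2 was higher at a very low FPKM. Taking for each gene the locus with the highest mean FPKM, 6 of the 9 members had a mean FPKM of 1 or more and 0 of these 6 were past 1.5-fold, where 14.1% of 16303 loci were (5.94% higher and 8.16% lower), and with 6 genes a count of 0 does not set the members apart from that share. The median log2 ratio of these 6 members was 0.06, against -0.02 over all loci at the same level.

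**Figure D1:**
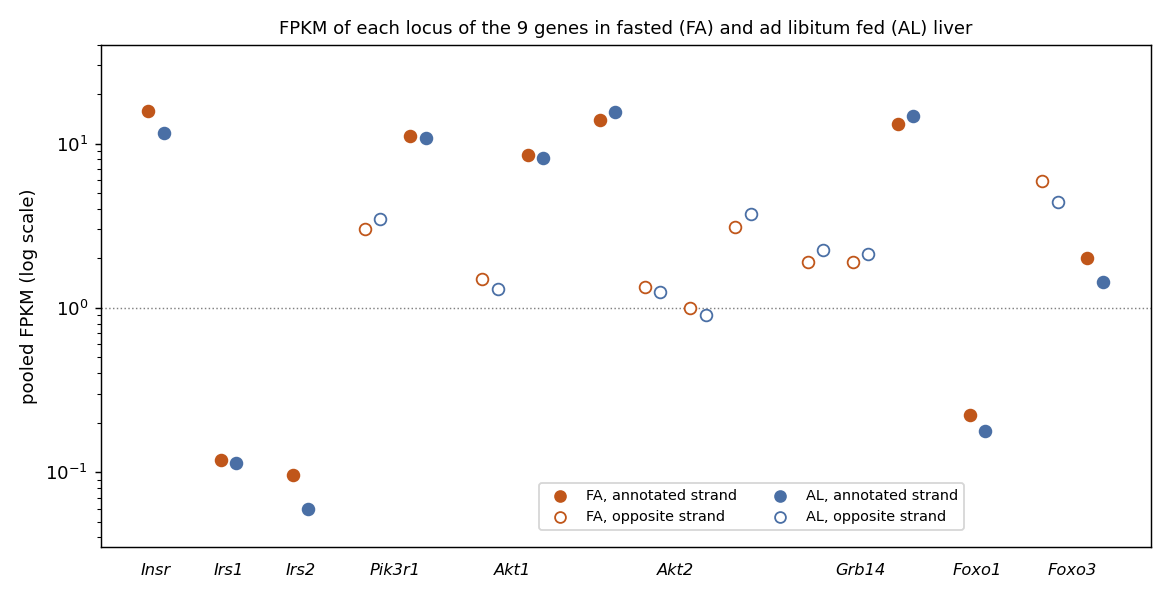
Pooled FPKM, on a log axis, of the 17 loci that name the 9 genes in FA (orange, left of each pair) and AL (blue), with filled points for loci on the annotated strand and open points for loci on the opposite strand. The annotated loci of Insr, Pik3r1, Akt1, Akt2 and Grb14 lay between 8.12 and 15.9 FPKM, while Irs1, Irs2 and Foxo1 lay under 0.25 FPKM and below the dotted line at 1.

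Insr encodes the insulin receptor. Its single locus (chr8:3122061-3279617 for the gene, minus strand, GRCm38) had an FPKM of 15.9 in FA and 11.6 in AL, 1.36-fold higher in FA with a log2 ratio of 0.45. It was the highest of the 17 member loci in FA, and 20.7% of loci at the filter had a ratio at least as far from 1. In the table of FA and AL this locus is labelled with a nonsense-mediated decay transcript of 4 exons. The transcript that stands for it in the table of RF and FA was listed at 0 in FA, so the level of the receptor in RF was not analysed here. Whether that is the same transcript was not checked. An antisense gene within the Insr span, Gm16180 on the plus strand, had an FPKM of 0.869 in RF, 1.29 in FA and 0.748 in AL, and its FA value was 1.73-fold that in AL. It overlapped none of the 4 exons of the Insr transcript named by the locus, and the exons of other Insr transcripts were not examined.

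Irs1 and Irs2 encode the docking proteins that the receptor phosphorylates. Irs1 (chr1:82233101-82291416, minus strand) had an FPKM of 0.112 in RF, 0.118 in FA and 0.114 in AL, and the groups lay within 1.05-fold of each other. Irs2 (chr8:10984681-11008458, minus strand) had 0.0555 in RF, 0.0964 in FA and 0.0597 in AL. The Irs2 value was thus 1.61-fold higher in FA than in AL (log2 ratio 0.69), 0.576-fold in RF relative to FA (log2 ratio -0.80) and 0.930-fold in RF relative to AL. FA held the highest value, and the fed groups were near each other. Both comparisons of Irs2 use the FA libraries, so they are not independent. Irs2 was under the filter, and with 0.1 FPKM added to both groups its log2 ratio of FA over AL was 0.30 in place of 0.69.

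The low values of Irs1 and Foxo1 stand beside higher ones on the other strand of the same genomic span. Gm9747, a gene of 1 exon on the plus strand (chr1:82233112-82235933), had an FPKM of 13.0 in FA and 11.8 in AL, 110-fold that of Irs1 in FA and 104-fold in AL. All of its 2822 bases lie within exon 2 of Irs1, which is the last exon and has 4504 bases. Its own ratio of FA over AL was 1.10. Over Foxo1, the antisense gene Gm20402 (chr3:52268435-52269435, minus strand) had 4.54 in FA and 3.63 in AL, 20.4-fold the Foxo1 value in FA and 20.3-fold in AL, and 674 of its bases lie in exon 1 of Foxo1. Irs2 had no partner of such a level, since 9530052E02Rik, which starts beside it on the plus strand and covers 162 bases of its exon 1, had 0.0451 in RF, 0.167 in FA and 0.214 in AL. Whether reads of Irs1 and Foxo1 were assigned to the loci on the other strand was not tested.

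**Figure D2:**
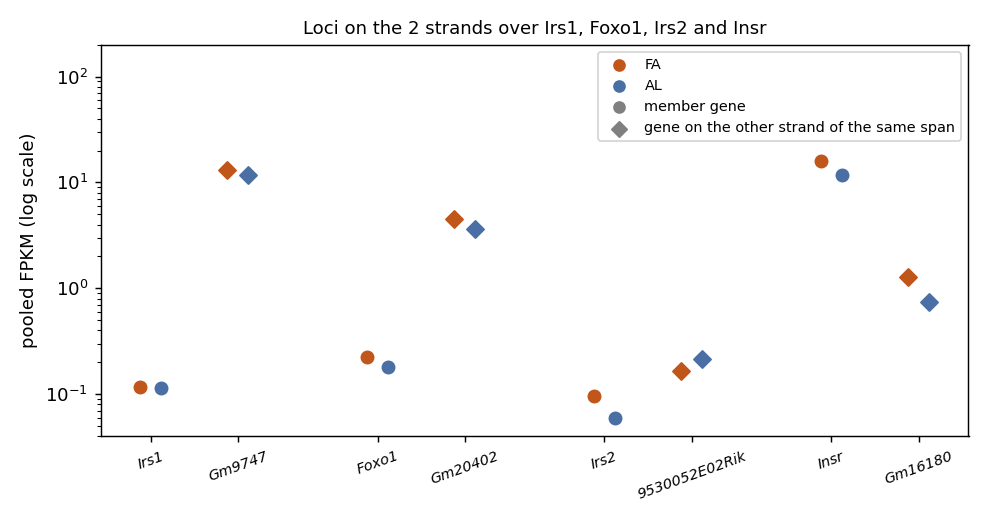
Pooled FPKM, on a log axis, in FA (orange, left) and AL (blue) for 4 members (circles) and for a gene on the other strand of the same span (diamonds). Gm9747 and Gm20402 lay more than 20-fold above Irs1 and Foxo1 in both groups, whereas Gm16180 lay below Insr.

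Pik3r1 encodes p85-alpha, the regulatory subunit of phosphoinositide 3-kinase. Its annotated locus (chr13:101680563-101768217, minus strand) had an FPKM of 11.2 in FA and 10.8 in AL, a 1.03-fold difference. The opposite-strand locus over the gene had 4.74 in RF, 3.03 in FA and 3.47 in AL, so that FA was 0.873-fold AL. RF was the highest of the groups there, at 1.56-fold FA (log2 ratio 0.64) and 1.36-fold AL. This was the only member locus past 1.5-fold at the filter in any comparison. The annotated strand held 78.7% of the summed FPKM of Pik3r1 in FA and 75.7% in AL.

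Akt1 and Akt2 encode the kinases that carry the signal onwards, and AKT2 is the main form in insulin-responsive tissues. Akt2 (chr7:27591552-27640826, plus strand) had an FPKM of 13.9 in FA and 15.5 in AL at its annotated locus, 0.896-fold in FA. Akt1 (chr12:112653821-112674884, minus strand) had 8.55 in FA and 8.12 in AL at its annotated locus, 1.05-fold in FA. Akt2 was therefore the more abundant of the pair in both groups, by FPKM, which is scaled to transcript length. On the opposite strand, Akt1 had a single locus with 1.61 in RF, 1.49 in FA and 1.30 in AL. Akt2 had several, of which the highest held 3.67 in RF, 3.11 in FA and 3.71 in AL. The next Akt2 locus had 1.23 in RF, 1.34 in FA and 1.24 in AL, and the lowest had 0.851 in RF, 0.997 in FA and 0.900 in AL. The opposite-strand loci of Akt2 thus did not share a direction in FA against AL, as one was lower and the others were higher in FA, all by less than 1.2-fold.

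Grb14 encodes an adapter that binds the active insulin receptor and inhibits its kinase. Its annotated locus (chr2:64912476-65024987, minus strand) had 13.2 FPKM in FA and 14.7 in AL, 0.901-fold in FA. Of its opposite-strand loci, one had 2.14 in RF, 1.90 in FA and 2.26 in AL and the other 2.10 in RF, 1.89 in FA and 2.12 in AL. All of the Grb14 loci were lower in FA than in AL, at 0.841-fold to 0.901-fold. In AL the inhibitor was above the receptor by FPKM (14.7 for Grb14 and 11.6 for Insr), and in FA below it (13.2 for Grb14 and 15.9 for Insr), both at annotated loci. With FPKM summed over all loci of a gene, Grb14 was above Insr in both groups, at 17.0 for Grb14 and 15.9 for Insr in FA and 19.1 for Grb14 and 11.6 for Insr in AL.

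Foxo1 and Foxo3 encode the transcription factors at the end of the pathway. Foxo1 (chr3:52268336-52353221, plus strand) had an FPKM of 0.223 in RF, 0.222 in FA and 0.179 in AL, 1.24-fold higher in FA than in AL and 1.00-fold in RF relative to FA. Foxo3 (chr10:42181841-42276755, minus strand) was the only member whose highest locus lay on the opposite strand, with 5.90 in FA and 4.41 in AL, 1.34-fold higher in FA (log2 ratio 0.42). Its annotated locus had 2.00 in FA and 1.43 in AL, 1.40-fold higher in FA (log2 ratio 0.49). Both strands of Foxo3 therefore gave a ratio of like size. The annotated strand held 25.3% of the summed FPKM of Foxo3 in FA and 24.4% in AL. Over all 17 member loci, 11 were higher in FA than in AL and 6 were lower. The share of all loci higher in FA by any amount was not counted, and loci of the same gene are not independent. This count is therefore not a result about the set.

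The comparison of RF with FA asks how the same transcripts stand after food is given back. In the RF table the annotated loci of Insr, Pik3r1, Akt2 and Grb14 stand at or near 0 in both groups, because the transcript that represents them there carries almost none of the FPKM of the locus. Of the members, 0 of the 2 that reached the filter at the same locus were past 1.5-fold, where 16.3% of 9601 loci were. These were Akt1, whose transcript held 1.90 in RF and 1.41 in FA (1.35-fold), and the opposite-strand transcript of Foxo3, with 1.92 in RF and 2.59 in FA (0.742-fold). The annotated-strand transcript of Foxo3, below the filter, went the other way, with 0.0772 in RF and 0.0594 in FA (1.30-fold). That Akt1 transcript carried 16.5% of the FPKM of its locus in FA, and that of Foxo3 43.9%, so neither is set beside AL. With the highest matched locus of each gene, a choice made after the values were seen, 1 of 4 members at the filter was past 1.5-fold, namely Pik3r1, where 14.6% of 7709 matched loci were (8.13% higher and 6.49% lower). With 4 members, this share is not a result about the set. The other 3 were Akt2 at 1.18-fold, Grb14 at 1.12-fold and Akt1 at 1.08-fold in RF relative to FA.

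**Figure D3:**
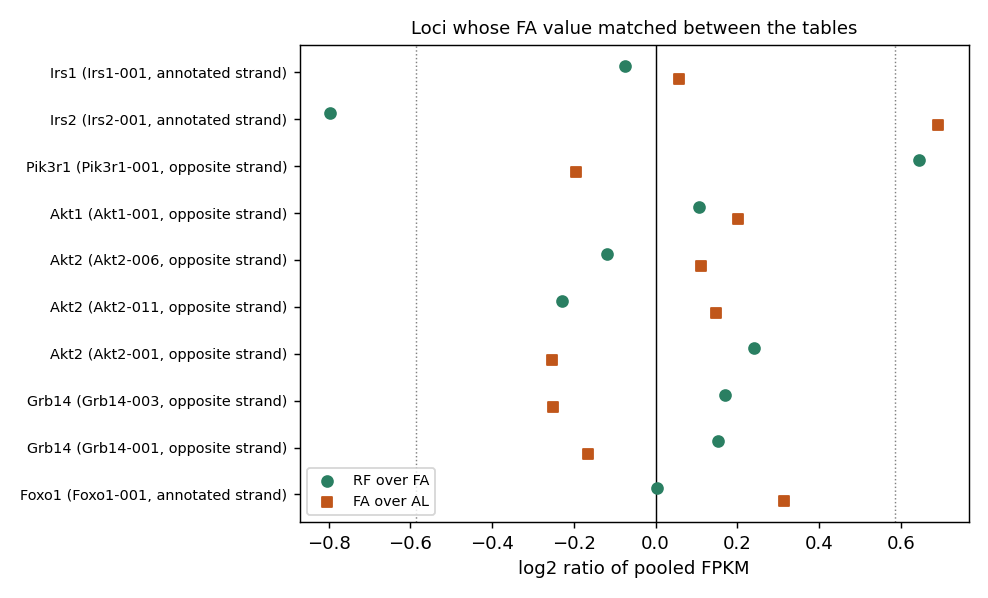
Log2 ratio of pooled FPKM, RF over FA (green circles) and FA over AL (orange squares), at the 10 member loci matched between the tables, with dotted lines at 1.5-fold. Irs2, which is under 0.1 FPKM, and the opposite-strand locus of Pik3r1 lie past a line for RF over FA, at -0.80 and 0.64, and the other loci lie within the lines for that ratio.

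The comparison of RF with AL asks where the transcripts stand after refeeding relative to mice that were never fasted. Of the 4 members at the filter with a matched locus, 0 were past 1.5-fold in RF against AL, where 10.6% of 7711 matched loci were. Pik3r1 was 1.36-fold higher in RF, Akt1 1.24-fold higher, Akt2 0.992-fold and Grb14 0.945-fold, all at opposite-strand loci. Below the filter, Foxo1 was higher in RF by a log2 ratio of 0.32, Irs1 was at 0.988-fold and Irs2 at 0.930-fold. RF and AL come from separate tables, and the scaling of FPKM across libraries is not described in the labels or the methods.

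Several non-coding loci beside Irs2 had higher FPKM in FA than in AL. Within 100 kb of the Irs2 locus, 5 loci had a mean FPKM of 1 or more over FA and AL, all annotated as non-coding and all at lower coordinates than Irs2, which for a gene on the minus strand is its 3′ side. Of these, 3 reached that mean only through their FA value, so a higher FA value was built into their choice. The nearest, 66.6 kb away, include 4833411C07Rik, the lncRNA that the study calls LincIRS2. Its opposite-strand locus had 1.85 in RF, 3.79 in FA and 1.35 in AL, 2.80-fold higher in FA than in AL and 0.488-fold in RF relative to FA. Its annotated locus had 2.79 in FA and 1.19 in AL, 2.35-fold higher in FA, and was not matched. The opposite-strand locus of Gm45043, a lincRNA at the same place, had 0.651 in RF, 2.86 in FA and 0.552 in AL. Its FA value was 5.19-fold that in AL. At 90.2 kb, the opposite-strand locus of B930025P03Rik had 0.218 in RF, 2.54 in FA and 0.217 in AL, 11.7-fold higher in FA than in AL. Gm45044 beside it had 0.0647 in RF, 2.03 in FA and 0.0897 in AL, 22.6-fold higher in FA than in AL. The 3 loci chosen through FA are Gm45043, B930025P03Rik and Gm45044, whose ratios rest on AL values under 1. With no filter on low values, a choice made after the values were seen, 14 loci other than Irs2 were above 0 in FA and AL within 100 kb, of which 12 were higher in FA and 2 were lower, the antisense 9530052E02Rik among the lower. The share of all unfiltered loci higher in FA was not counted, so this count has no background to be read against. Overlapping loci on the 2 strands are not independent measurements, and shared reads between them were not tested for.

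**Figure D4:**
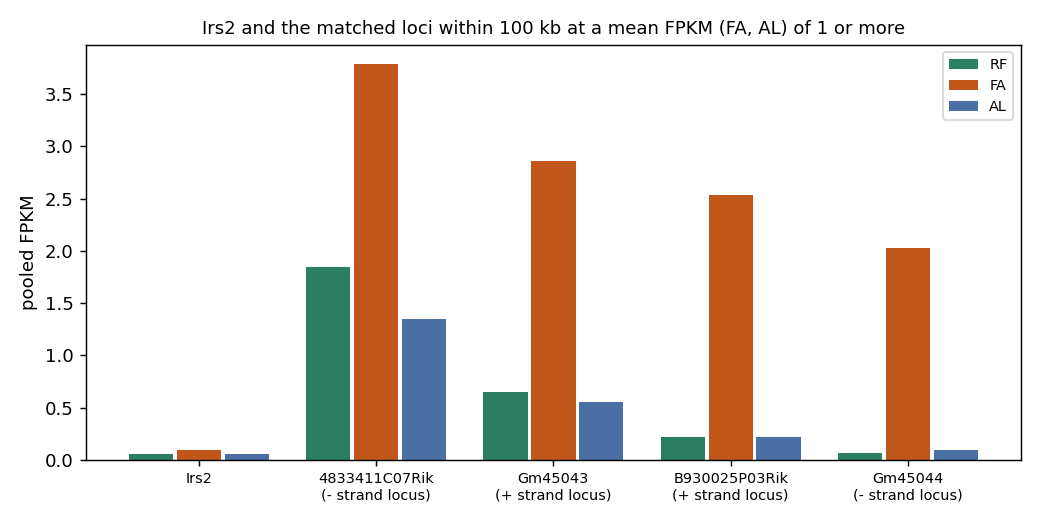
Pooled FPKM in RF (green), FA (orange) and AL (blue) of Irs2 and of the 4 loci within 100 kb of it that had a mean FPKM of 1 or more over FA and AL and matched between the tables. FA is the highest bar in each, between 2.03 and 3.79 FPKM for the neighbours and 0.0964 FPKM for Irs2.

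Among loci within 100 kb of the other members that had a mean FPKM of 1 or more over FA and AL, Gm16180 within Insr was the only one past 1.5-fold in FA against AL. Gm16180 reached that mean only through its FA value, so a higher FA value was built into its choice. Rhbdd1, beside Irs1, had 1.03 FPKM in FA and 1.47 in AL (log2 ratio -0.52), and Cobll1, beside Grb14, had 5.32 in FA and 4.58 in AL. Around Akt1, Siva1 had 2.48 in FA and 2.16 in AL, and around Foxo3, Lace1 had 1.60 in FA and 2.16 in AL. Among 6367 matched protein-coding loci at a mean FPKM of 1 or more, the 5 whose log2 ratios of FA over AL and RF over FA lay closest to those of Irs2 were opposite-strand loci of Decr2, Scarb1, Camta2, Arl4a and Pik3ap1, at Euclidean distances of 0.0433 to 0.0647 over 3 group values. Pik3ap1, an adapter of phosphoinositide 3-kinase, had 0.760 in RF, 1.38 in FA and 0.862 in AL there. Its annotated locus was higher, with 5.86 in RF, 7.04 in FA and 5.18 in AL. The log2 ratios at that locus were smaller, at 0.44 for FA over AL and -0.27 for RF over FA. Scarb1, the hepatic receptor for high-density lipoprotein, had 2.94 in RF, 5.21 in FA and 3.31 in AL. With so few group values, likeness of this kind is a description only.

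The members were then set beside 109 other genes of the pathway and its outputs, in 9 lists. In FA against AL, 87 of the 109 were at the filter, of which 8 were higher and 10 lower by 1.5-fold or more (20.7%), with a median log2 ratio of -0.05, against 5.94% higher and 8.16% lower (14.1%) among all loci and a median of -0.02. Of the genes that act beside the members, 0 of 2 for receptors and ligand clearance, 0 of 6 adapters, 0 of 5 phosphoinositide 3-kinase subunits, 0 of 10 AKT substrates and 0 of 16 FOXO family members and regulators were past 1.5-fold in FA against AL, counts too small to be read against the 14.1% of all loci one by one. The most abundant of each by mean FPKM is given here. Ide, the insulin-degrading enzyme, had 26.8 FPKM in FA and 31.9 in AL, Shc1 had 14.7 in FA and 19.7 in AL, Pik3c2a had 7.11 in FA and 8.06 in AL, Pde3b had 13.8 in FA and 14.8 in AL, and the 14-3-3 protein gene Ywhae had 28.3 in FA and 29.3 in AL. Of 7 genes for PDK1 and mTORC2, the kinases that phosphorylate AKT, 1 was past the threshold, where 14.1% of all loci were. With 7 genes, this count does not set the list apart from that share. It was the subunit gene Mlst8, with 1.40 in FA and 2.74 in AL at its annotated locus. An opposite-strand locus of Mlst8, under the filter, had 0.342 in FA, as listed with RF, and 0.369 in AL.

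Of 15 inhibitors of the receptor and of phosphoinositide 3-kinase signalling at the filter in FA against AL, 3 were higher and 1 was lower, with a median log2 ratio of -0.03, where 5.94% of all loci were higher and 8.16% lower. Cblb and Grb10 reached the filter only through the group in which they were higher. Trib3, a pseudokinase that binds AKT, had 0.662 in RF, 5.61 in FA and 1.81 in AL, 3.10-fold higher in FA than in AL and 0.118-fold in RF relative to FA. Cblb, a ubiquitin ligase, had 0.943 in RF, 1.79 in FA and 0.839 in AL. Socs3, which blocks signalling at the receptor, had 1.72 in FA and 1.08 in AL. Grb10, the paralogue of Grb14, had 0.851 in RF, 0.662 in FA and 1.46 in AL, 0.452-fold in FA relative to AL, whereas Grb14 was at 0.901-fold. In RF against FA with matched loci, 1 of 7 inhibitors was higher, Socs2 with 1.40 in RF and 0.931 in FA, and 2 were lower, Trib3 and Cblb. Of all matched loci, 8.13% were higher and 6.49% lower, and 7 genes are too few to be read against these shares. Socs2, Trib3 and Cblb each reached the filter there only through the group in which they were higher. The values of Trib3, Cblb, Socs3, Grb10 and Socs2 are all from opposite-strand loci. The difference between Grb10 and Grb14 was not tested, as the tables hold no replicates.

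Of 20 genes described as raised by hepatic FOXO1, 5 were higher and 2 lower in FA than in AL, with a median log2 ratio of 0.05, where 5.94% of all loci were higher and 8.16% lower. Pck1, which encodes the gluconeogenic enzyme PEPCK, had 606 FPKM in FA and 132 in AL, 4.58-fold higher in FA. Cpt1a, the entry enzyme of mitochondrial fatty acid oxidation, had 72.9 in FA and 29.1 in AL at a locus that also names Mtl5. Igfbp1, a secreted binding protein of insulin-like growth factors, had 0.598 in RF, 9.70 in FA and 4.19 in AL at an opposite-strand locus. Txnip, which restrains glucose uptake, had 7.94 in FA and 3.77 in AL. The list was not uniform, since Pdk4, which encodes a kinase that inhibits pyruvate dehydrogenase, had 0.834 in FA and 1.34 in AL at its highest locus, on the opposite strand. Gadd45a, a stress-response gene, was the other one lower in FA, with a log2 ratio of -0.60, and G6pc, the glucose-6-phosphatase gene, had 30.5 in FA and 28.1 in AL, also on the opposite strand. Pdk4 and Gadd45a reached the filter only through AL, the group in which they were higher. In RF against FA at matched loci, 5 of 9 were lower and 0 were higher, where 6.49% of all matched loci were lower and 8.13% higher. Among them, Pck1 had 93.9 in RF and 351 in FA at its opposite-strand locus, and G6pc had 11.0 in RF and 30.5 in FA. At the locus rule used for the other counts, 4 of 8 were lower in RF and 0 higher, one of them the catalase gene Cat, whose unmatched transcript had 0.000507 in RF and 2.19 in FA. In RF against FA, Igfbp1 and Cat reached the filter only through FA.

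Of 8 genes described as raised by insulin in liver 6 were at the filter, and all 6 were lower in FA than in AL and 0 were higher, with a median log2 ratio of -3.04, where 8.16% of all loci were lower. Mid1ip1 among them reached the filter only through AL. Fasn, the fatty acid synthase gene, had 5.11 in FA and 100.3 in AL. Acly, which encodes ATP-citrate lyase, had 15.5 in FA and 129 in AL at its annotated locus, and at its opposite-strand locus 5.27 in RF and 1.54 in FA, 3.41-fold higher in RF. Thrsp, which promotes lipogenesis, had 31.1 in RF, 1.28 in FA and 58.8 in AL at an opposite-strand locus. Of 2 such genes with a matched locus at the filter in RF against FA, Acly and Thrsp, 2 were higher in RF and 0 lower. Of all matched loci, 8.13% were higher and 6.49% lower, and 2 genes are too few to be read against these shares. At the locus rule used for the other counts, 1 of 2 was higher in RF and 0 lower. The one not past 1.5-fold was Scd1, with 30.7 in RF and 23.2 in FA at an opposite-strand locus that also names Hif1an. In FA against AL, the 6 insulin-raised genes at the filter differed by several-fold, and Insr, Pik3r1, Akt1, Akt2, Grb14 and Foxo3 by less than 1.5-fold.

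**Figure D5:**
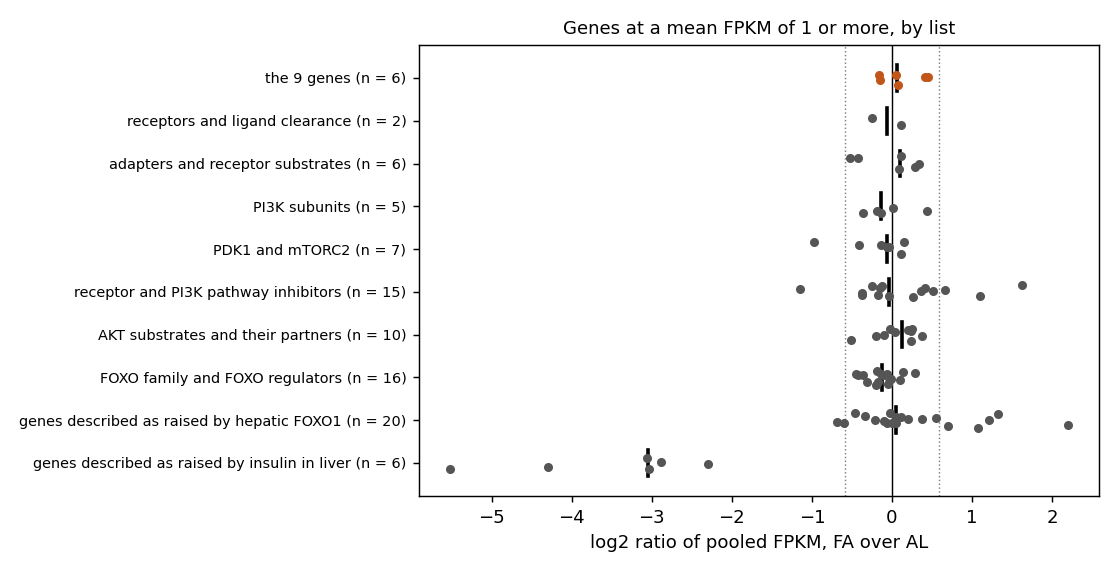
Log2 ratio of pooled FPKM, FA over AL, for the genes at a mean FPKM of 1 or more in the 9-gene set (orange) and in each of the 9 pathway lists (grey), with the list median as a black bar and dotted lines at 1.5-fold. The 6 members at the filter lie within the lines, and the genes described as raised by insulin have a median of -3.04.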

How the data were processed

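Liver RNA-seq of 12 mouse libraries in 3 groups of 4 was described, with groups taken from the sample titles. Per the labels and the study's methods, the authors depleted ribosomal RNA, removed remaining ribosomal reads with Bowtie2 2.2.9, aligned reads to GRCm38 with STAR 2.6.0c, and assembled and compared transcripts with Cufflinks 2.2.1 (Cuffdiff), with gene names from Ensembl release 90. The deposited values are FPKM, pooled by the authors into 1 value per group and locus, with 0 columns of single libraries. The deposited tables also hold the authors' own comparison of the groups (fold change, test statistic, p-value, q-value), which was not used. No counts are given, so the depth is unknown, no count test was possible and no p-value was computed.

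Members were found by name in the gene column. For each gene the locus with the highest mean FPKM of FA and AL was counted, ratios were taken with no pseudocount, and loci of failed or low-data status (32) were left out. The strand of a locus was read from the numbering of loci within a chromosome and set against the gene's strand in GENCODE release M21 (GRCm38). Promoters came from RefSeq (GRCm38.p6). Calculations used Python 3.11.15 with pandas 2.3.3 and numpy 2.4.6, and the counting was tested on simulated data. Named were all loci of members, up to 4 genes past 1.5-fold per list by size of ratio or else the most abundant gene, loci within 100 kb of a member, and the 5 loci most like Irs2. Pdk4, Gadd45a, Scd1, Ttr, Trf and the FA and AL values of G6pc were added after their values were seen. So were the annotated locus of Pik3ap1 and the opposite-strand locus of Mlst8. The members and lists were chosen with earlier results of these data known, and 1 gene of the lists is not reported here. Alternatives were another pseudocount, fold, filter, locus choice, centring and match tolerance, and 2 further locus choices and an unfiltered count of neighbouring loci were added after seeing the data.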

Additional observations from a re-analysis of the deposited data

How the results depend on the processing

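The count of members past the threshold was 0 in each comparison, and the following alternatives gave another count. At a lower threshold, a log2 ratio of 0.32 in either direction, it was 2 of 6 in FA against AL (Insr and Foxo3, where 32.2% of all loci were past it), 2 of 2 in RF against FA (36.1% of all loci) and 1 of 4 in RF against AL (26.1%). With no filter on low values it was 1 in FA against AL (Irs2) and 4 in RF against FA, of which Pik3r1, Akt2 and Grb14 are ratios of values near 0. In RF against FA it was 1 (Pik3r1) with FPKM summed over all loci of a gene and 1 with the matched locus, which was added after seeing the data. The remaining alternatives, among them 2-fold, the pseudocounts, the annotated strand alone, centring and the other match tolerances, left the counts at 0. Of these, 2-fold and the pseudocounts cannot raise a count of 0, so their outcome was fixed in advance. The annotated strand alone left 1 member at the filter in RF against FA and 0 in RF against AL, so its count there is not informative. Of 224 member ratios recomputed, 9 moved by a log2 difference of 0.32 or more and 6 changed sign. Irs2 moved with the pseudocount, to a log2 ratio of FA over AL of 0.05 with 1 FPKM added, and with 9530052E02Rik in its place it was -0.36. Foxo3 in RF against FA was 0.38 on the annotated strand and -0.43 on the opposite strand. For the 109 pathway genes, FA against AL gave 18 of 87 past 1.5-fold (14.1% of all loci) and 38 of 87 past the lower threshold (32.2%). RF against FA gave 7 of 36 at 1.5-fold (16.3% of all loci) and 20 of 36 at the lower one (36.1%). It gave 54 of 102 with no filter and 13 of 60 with summed loci, for which no share of all loci is given here. The unfiltered count includes ratios of values near 0, so it is not a result about the pathway.

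No paired analysis was possible because the tables hold 1 pooled value per group, and for the same reason leaving out a library was not run. Without replicates or counts, none of the ratios has an error, and levels under 1 FPKM, those of Irs1, Irs2 and Foxo1, are below the filter used for the counts.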
